A study of Sus scrofa with 67 samples.

Results

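In the porcine oestrous cycle, 91 genes had a higher share of the RNA reads in the endometrium and in the oviduct on day 9 than on day 0, while in the ovary they stayed between the limits given next. They were chosen by these measured values among the 25322 genes of the count table. For each tissue and day, the mean CPM (a gene's count divided by the library's total and multiplied by 1000000) was taken and 1 was added. A gene belonged to the 91 when its ratio of day 9 to day 0 was 2 or more in both the endometrium and the oviduct and above 0.5 but under 2 in the ovary. By the same limits, 630 genes reached a ratio of 2 in the endometrium alone, 428 in the oviduct alone and 28 in all 3 tissues. Because 1 was added to each mean, a gene near 0 in the ovary meets the ovarian limit whatever it does there, and 32 of the 91 were under 1 CPM in the ovary on day 9. A symbol was known for 60 of the 91 genes, and the other 31 carry only their Ensembl identifier.

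The libraries came from crossbred Landrace × Yorkshire gilts (young female pigs) of 6 to 8 months that had cycled normally, with day 0 as the onset of oestrous behaviour. The samples, obtained by hysterectomy, were mid-horn endometrium stripped of the muscle layer, the ampulla of the oviduct, and the entire ovary from 1 side. No animal was treated, so the groups differ only in tissue and in day, with days 0, 3, 6 and 9 followed by 12, 15 and 18. Of 67 samples described, 66 had a count column, and each of the 21 tissue and day combinations held 2 to 4 libraries, although the study states 3 gilts a day. The sample without a column was of the endometrium on day 12, where 4 samples were described and 3 had counts. The p-values given here measure the spread between these libraries.

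After ovulation the ovary forms corpora lutea, which secrete progesterone until they regress late in the cycle if no embryos are present. Progesterone acts through its nuclear receptor on the epithelium and stroma of the uterus and oviduct, where it is known to switch secretion, ion transport and glycosylation to a luteal state. Day 9 lies in the luteal phase, and day 18 lies in the follicular phase before the next oestrus.

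The total count per library ran from 8962103 to 13442083, so that 3 counts, taken as the lowest detectable level, correspond to 0.223 to 0.335 CPM. These were whole tissues, in which fewer cells of a type and less RNA per cell cannot be told apart. A few libraries stood apart from their group. In the endometrium of day 15, the library numbered 2 had the highest value of its group for 60 of the 91 genes, and in the ovary of day 12 the library numbered 1 had the highest value for 63. In the oviduct of day 15, the library numbered 2 was the highest for 41 genes. On day 18, the library numbered 1 was the highest for 60 genes in the oviduct and for 45 in the endometrium. In the oviduct of day 3, the library numbered 3 was the highest and the one numbered 2 the lowest for 63 genes each. The same numbers were the highest and the lowest in the endometrium of day 3, for 50 genes each. In the ovary of day 15, the mean log2(CPM + 1) over the 91 genes was 3.46 in the library numbered 1 and 2.83 to 3.00 in the others.

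The day 9 and day 0 values describe how the genes were chosen and carry no test. In the endometrium the ratio of day 9 to day 0 had a median of 3.66 and ran from 2.0 to 75.6, with 19 genes at 10 or more. In the oviduct the median was 2.48 and the range 2.04 to 23.4, with 2 genes at 10 or more. The ratio was larger in the endometrium for 65 genes and larger in the oviduct for 26. In the ovary the ratio had a median of 0.889 and was under 1 for 63 genes. Every day 9 library lay above every day 0 library for 85 genes in the endometrium, 78 in the oviduct and 10 in the ovary. The rule favours such a separation in the endometrium and oviduct and limits it in the ovary. No share over all genes is given beside these counts.

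The genes at the limits show how narrowly some were included. SLC1A3, a glutamate transporter, was the last inside the endometrial limit with a ratio of 2.0. CACNA1D, a voltage-gated calcium channel subunit, was just inside the oviductal limit with 2.04, and ADCY9 just outside with 1.997. In the ovary, the identifier ENSSSCG00000002749 lay inside the upper limit with 1.85 and ENSSSCG00000001652 outside with 2.21. HIF3A, a hypoxia-inducible factor subunit, lay inside the lower limit with 0.506 and EPHB6 outside with 0.488. The smaller of the endometrial and oviductal ratios was under 2.5 for 54 of the 91 genes. TMM scaling, which corrects for the makeup of the libraries, shifted the log2 ratio of day 9 to day 0, taken without the added 1, by 0.10 in the endometrium, -0.28 in the oviduct and 0.29 in the ovary. On that scale 59 genes met the rule, of which 55 were among the 91.

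The day with the highest mean is given for each tissue as a description. The rule favours day 9 in the endometrium and oviduct and limits it in the ovary. Shares over all genes are not given beside these counts. The highest endometrial day mean was that of day 9 for 44 genes, of day 6 for 22 and of day 12 for 20. In the oviduct the peak was spread more widely, with the days 9 and 12 leading for 27 genes each, day 6 for 19 and day 3 for 11. Among the 74 genes that reached 1 CPM on some day in the ovary, the highest mean was that of day 15 for 33, of day 18 for 16 and of day 9 for 2. Of those 33, the ovarian day 15 library numbered 1 was the highest of its day for 18. Without that library, 22 genes had their highest mean on day 15 and 18 on day 18. Among the 5 days that did not choose the genes, the endometrial peak was day 6 for 48 genes and day 12 for 35. The oviductal peak among them was day 6 for 37 genes and day 12 for 34. Among the same days in the ovary, day 15 was highest for 34 of the 74 genes and day 18 for 23.

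**Figure D1:**
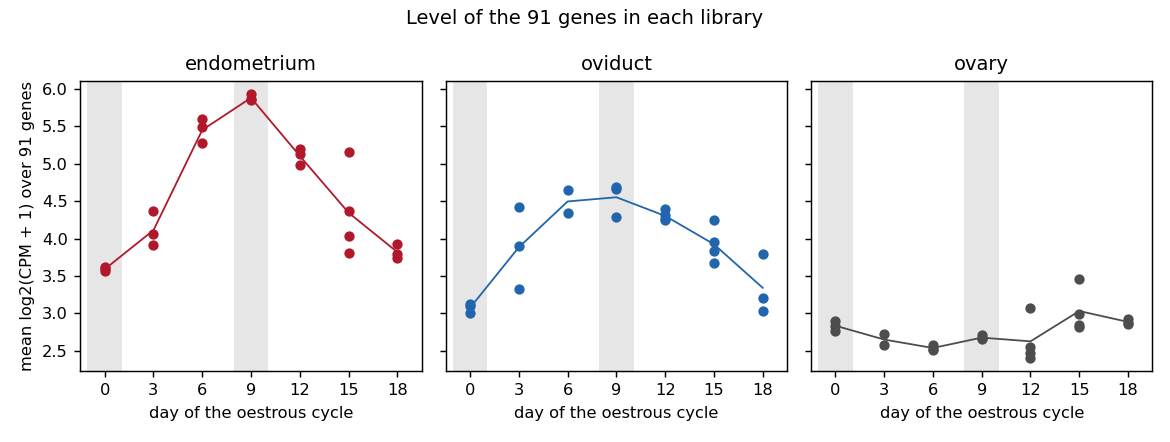
Mean log2(CPM + 1) over the 91 genes in each library (points) and the mean of each day (line), by tissue and day of the oestrous cycle. Shaded days 0 and 9 chose the genes. In the endometrium the day mean ran from 3.59 on day 0 to 5.88 on day 9 and 3.82 on day 18, in the oviduct from 3.08 to 4.55 and 3.34, and in the ovary it stayed between 2.54 and 3.03.

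**Figure D2:**
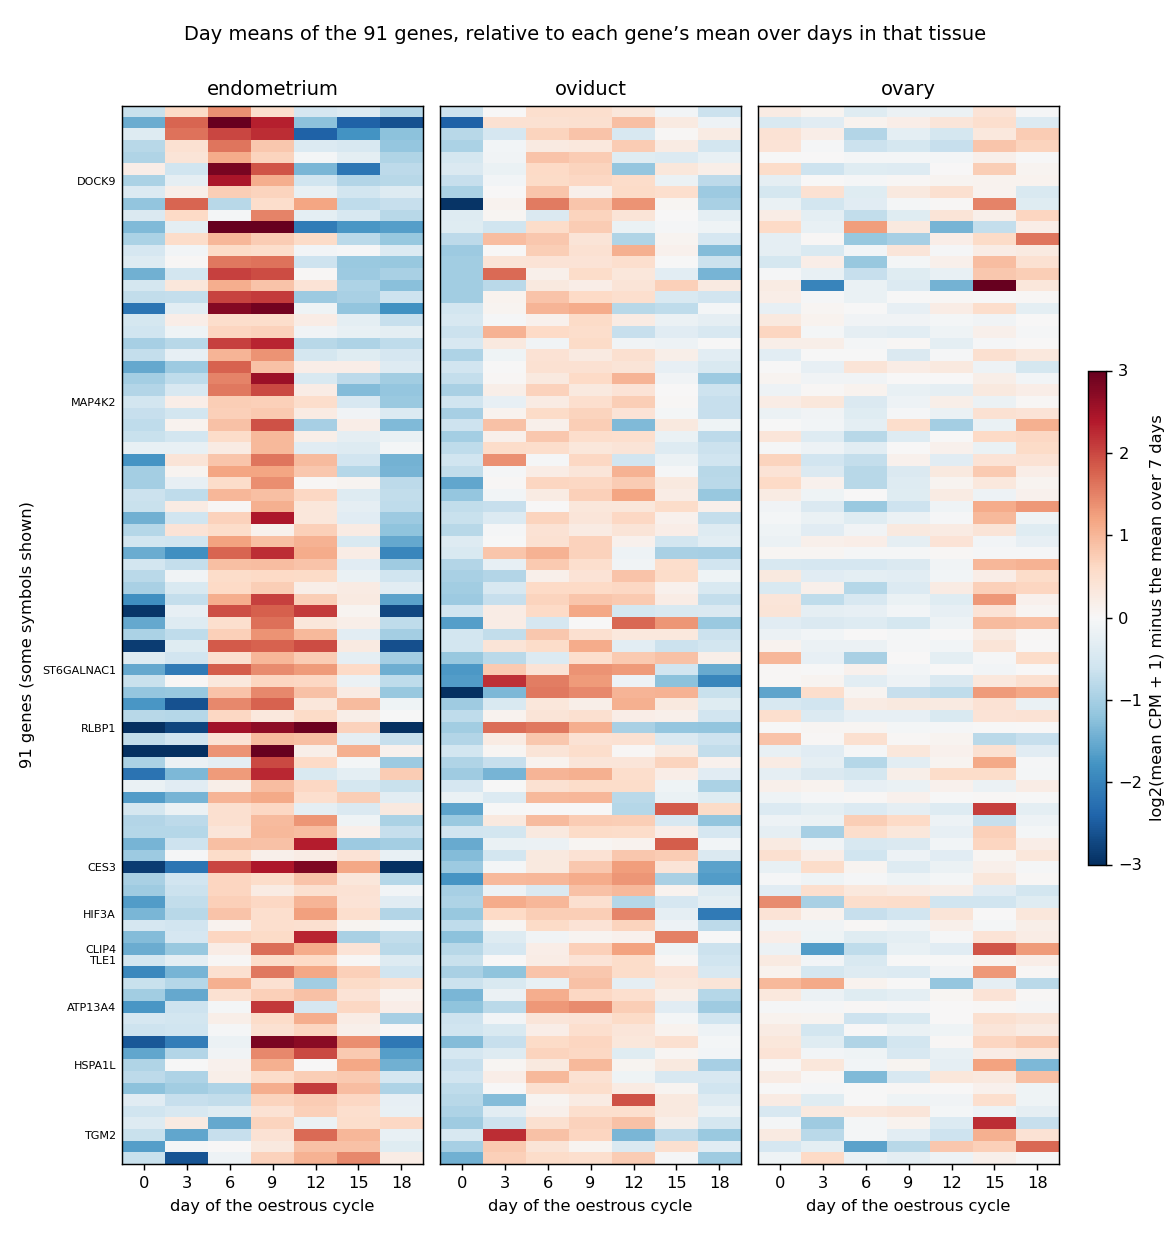
Day means of the 91 genes in 3 tissues, as log2(mean CPM + 1) minus the gene's mean over 7 days in that tissue, with red above and blue below that mean. Rows are ordered by the timing of the rise in the endometrium and symbols are printed for some genes. Red lies mainly on days 6, 9 and 12 in the endometrium and oviduct, where day 9 helped to choose the genes. In the ovary day 15 held the highest mean for 33 of the 74 genes that reached 1 CPM.

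Because day 0 and day 9 chose the genes, only the other 5 days were tested, in fits that left those 2 days out. By edgeR (quasi-likelihood F-test, p-values adjusted over all genes by Benjamini-Hochberg), 39 of the 90 genes tested were higher in the endometrium on day 6 than on day 3. Over all 15257 genes tested in the endometrium, 6.69% were higher and 7.73% lower. The median log2 fold change of the 90 genes was 1.5, against -0.01 over all genes. The gene that fell was ATP6V1B1, a subunit of the proton pump of acid-secreting cells, by 1.64 ± 0.47 (SE) on the log2 scale (adjusted p = 0.0306). Without 1 of the day 3 libraries, numbered 1 or 2, the number called was 22 or 21.

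The closing of the luteal phase was measured as day 12 against day 18. In the endometrium, 40 of 90 genes tested were higher on day 12 and 0 were lower, where 7.10% of all genes were higher and 6.00% lower. By unadjusted p under 0.05, 53 were higher and 2 lower in edgeR, and DESeq2's Wald test called 48 higher and 0 lower. In the oviduct, 23 of 90 were higher and 0 lower, where 5.83% of all 15518 genes were higher and 9.53% lower. There, 42 were higher and 3 lower at an unadjusted p under 0.05, and DESeq2 called 33 higher and 1 lower. The median log2 fold change was 1.34 in the endometrium and 0.92 in the oviduct, against medians over all genes of -0.03 and -0.0010.

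These counts depended on single libraries of day 18. Without the endometrial day 18 library numbered 3, only 1 of these genes was called, and without the one numbered 2, 3 were called. Without the oviductal day 18 library numbered 2, 0 of these genes were called and 0 of all genes. The calls over all endometrial genes also fell, to 73 higher and 119 lower without library 3. Without the endometrial day 12 library 1 or 2, the count was 23 or 21, and without the oviductal day 12 library 2 or 3, it was 11 or 10.

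The spread of the libraries gives the same comparison without a model. In the endometrium, every day 12 library lay above every day 18 library for 52 of the 90 genes tested, beside 15.9% of all genes. In the oviduct this was so for 46 of 90, beside 22.8% of all genes. In the ovary it was so for 5 of 74, beside 3.63% of all genes.

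In the ovary, edgeR called 0 of the 74 genes tested between day 12 and day 18, and also 0 of all 15409 genes (0%). By unadjusted p under 0.05, 5 were higher and 4 lower, where 3316 of all 15409 genes passed in either direction. DESeq2 called 1, which was lower on day 12, and 904 higher and 589 lower over all genes. The median log2 fold change was -0.19. The other 17 genes, among them ST6GALNAC1, RLBP1, ATP13A4, GRIA1 and CWH43, were too low in the ovary to be tested. Without the ovarian day 12 library numbered 1, edgeR called 8 of these genes, 2 higher and 6 lower on day 12, and 1550 higher and 1149 lower over all genes.

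The early step from day 3 to day 6 gave 0 calls in the oviduct (0% of all genes), where the day 3 libraries differed as given above, and 0 in the ovary (0%). At an unadjusted p under 0.05, 10 of these genes were higher and 2 lower in the oviduct and 5 were higher and 1 lower in the ovary. Over all genes, 918 of 15518 passed in the oviduct and 769 of 15409 in the ovary. DESeq2 called 1 in the oviduct, which was higher on day 6, and 0 in the ovary. The median log2 fold change was 0.28 in the oviduct and 0.09 in the ovary.

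**Figure D3:**
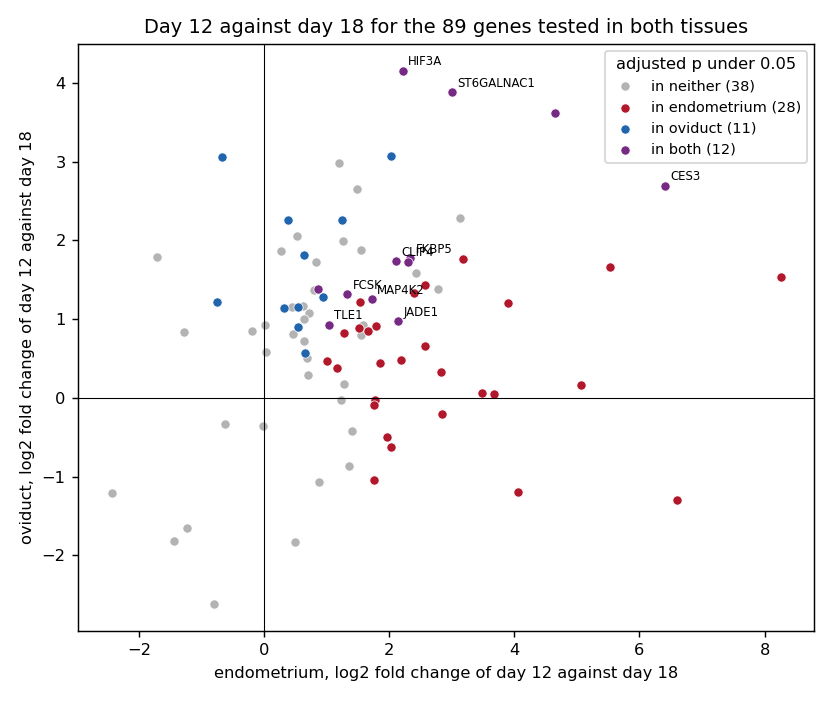
Log2 fold change of day 12 against day 18 in the endometrium (horizontal axis) and the oviduct (vertical axis) for the 89 genes tested in both. Colours mark an adjusted p under 0.05 in edgeR. The 12 genes called in both tissues lie to the upper right, with symbols where known.

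Of the 89 genes tested in both tissues, 65 had a positive log2 fold change of day 12 against day 18 in both and 6 a negative one in both. Another 13 were positive in the endometrium and negative in the oviduct, and 5 the reverse. Calls in both tissues were made for 12 genes, where 0.800% of the 14751 genes tested in both were called higher in both. They were CES3, ST6GALNAC1, HIF3A, MAP4K2, CLIP4, TLE1, FKBP5, JADE1, FCSK and 3 identifiers without a symbol, ENSSSCG00000011478, ENSSSCG00000016675 and ENSSSCG00000002520. At least 1 of the 3 comparisons (endometrium day 6 against day 3, endometrium day 12 against day 18, oviduct day 12 against day 18) called 70 of the 91 genes higher, and 21 were called higher in none.

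The counts by role that follow stand beside 7.10% of all genes called higher on day 12 in the endometrium, 5.83% in the oviduct and 6.69% on day 6 in the endometrium. For groups of this size a count of 1 is close to those shares. A mixed group of 7 genes, of the steroid response, chaperones and transcription, held 4 of these 12, namely FKBP5, HIF3A, TLE1 and JADE1. Of the 7, 4 were higher on day 12 in the endometrium and 5 in the oviduct. Only FKBP5 is also on the list of steroid receptors and progesterone targets given below. FKBP5 encodes a co-chaperone of the steroid receptors that progestins and glucocorticoids are known to induce. Its endometrial libraries held 144, 215 and 263 CPM on day 12 and 32.7, 43.7 and 49.6 CPM on day 18, with no overlap. The oviduct held 104, 107, 113 and 132 CPM on day 12 and 15.0, 35.8 and 37.2 CPM on day 18, again without overlap. The log2 fold change was 2.33 ± 0.58 (SE) in the endometrium (adjusted p = 0.0244) and 1.77 ± 0.44 in the oviduct (adjusted p = 0.0223). In the ovary the day 12 libraries held 41.1 to 120 CPM and the day 18 libraries 53.3 to 112 CPM, which overlap.

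TLE1 encodes a Groucho co-repressor that works with many transcription factors. Its endometrial libraries held 99.0, 123 and 131 CPM on day 12 and 48.9, 59.9 and 69.3 CPM on day 18. The oviduct held 82.9, 83.1, 101 and 103 CPM on day 12 and 39.5, 41.6 and 42.1 CPM on day 18. The groups do not overlap in either tissue, and the log2 fold changes of 1.03 ± 0.25 and 0.93 ± 0.20 were both called (adjusted p = 0.0211 and 0.0162). The change in the endometrium exceeded that in the oviduct by 0.07 ± 0.30 on the log2 scale. In the ovary the 4 day 12 libraries held 19.6, 20.6, 21.1 and 37.9 CPM, within which lay the 3 day 18 libraries at 22.9, 28.0 and 35.3 CPM.

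HIF3A, a member of the hypoxia-inducible factor family, had the widest oviductal span of the group. On day 12 the oviduct held 21.7, 25.3, 27.3 and 33.3 CPM and on day 18 it held 0.434, 0.749 and 2.79 CPM, a log2 fold change of 4.16 ± 0.82 (adjusted p = 0.0138). In the endometrium, 33.9, 44.9 and 62.5 CPM on day 12 stood against 6.62, 7.37 and 16.6 CPM on day 18, a log2 fold change of 2.22 ± 0.51 (adjusted p = 0.0192). The ovarian day 12 libraries ran from 0 to 6.04 CPM, with 3 of the 4 under the detectable level.

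JADE1 encodes a subunit of a histone acetyltransferase complex. Its endometrial levels were 169, 338 and 481 CPM on day 12 and 57.3, 68.4 and 104 CPM on day 18 (log2 fold change 2.14 ± 0.46, adjusted p = 0.0163). The oviductal levels of 136, 144, 147 and 151 CPM on day 12 were closer together and lay above 49.5, 67.3 and 73.3 CPM on day 18 (0.97 ± 0.26, adjusted p = 0.0268). ELL3, a transcription elongation factor, was called on day 6 in the endometrium (2.68 ± 0.68, adjusted p = 0.0177) and on day 12 in the oviduct, where day 12 held 7.28 to 8.60 CPM and day 18 0.561 to 1.17 CPM. SATB1, a chromatin organiser, passed neither test of day 12 (adjusted p = 0.671 and 0.098).

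HSPA1L carries the symbol of a heat shock protein of the HSP70 family, whose copies are so alike that reads may be shared among them. It was named for its large share of the reads, which is not corrected for transcript length. Its libraries varied widely within a day, from 545 to 4945 CPM in the endometrium on day 9. No comparison between days called it, with a log2 fold change of 1.55 ± 0.53 in the endometrium (adjusted p = 0.0665) and 0.80 ± 0.47 in the oviduct (adjusted p = 0.244) for day 12 against day 18.

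Enzymes of glycans, lipids and small molecules made up 10 of the genes, of which 5 were higher on day 12 in the endometrium, 5 in the oviduct and 3 in both. ST6GALNAC1 encodes a sialyltransferase that caps the O-linked sugars of mucins, and the smaller of its 2 ratios was the largest among the 91 genes. Its endometrial libraries held 39.3, 65.4 and 74.0 CPM on day 6 against 1.77, 3.4 and 3.57 CPM on day 3. On day 12 they held 20.5, 45.6 and 56.0 CPM and on day 18 only 3.95, 5.75 and 5.96 CPM. The oviduct went from 7.04, 8.68, 11.3 and 12.0 CPM on day 12 to 0.0869, 0.561 and 1.08 CPM on day 18, the lowest of which is 1 count.

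The tests called ST6GALNAC1 in both tissues. Its log2 fold change was 4.54 ± 0.73 for day 6 against day 3 in the endometrium (adjusted p = 0.00171), 3.00 ± 0.68 for day 12 against day 18 there (0.0191) and 3.88 ± 0.88 in the oviduct (0.0177). The size of the oviductal fold is uncertain, since 1 of the day 18 libraries there lay under the detectable level. In the ovary no library passed 0.244 CPM on any day, at or under the detectable level. Its day 15 oviductal libraries held 0.735, 0.793, 1.07 and 5.49 CPM, of which the highest stood apart.

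CES3, a carboxylesterase that cleaves ester bonds, showed the steepest endometrial fall among the genes called in both tissues. The endometrium held 569, 670 and 743 CPM on day 12 and 5.70, 9.14 and 9.28 CPM on day 18, a log2 fold change of 6.41 ± 1.35 (adjusted p = 0.016). The oviduct held 76.3, 80.9, 166 and 291 CPM on day 12 and 13.5, 19.3 and 28.1 CPM on day 18, a log2 fold change of 2.69 ± 0.55 (adjusted p = 0.0147). The ovary held 11 to 32.1 CPM on day 12 and 10.1 to 32.7 CPM on day 18, nearly the same range.

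FCSK, the kinase that salvages fucose for glycan synthesis, was higher on day 12 by a log2 fold change of 1.33 ± 0.39 in the endometrium (adjusted p = 0.041) and 1.32 ± 0.28 in the oviduct (adjusted p = 0.0158). PHGDH, the first enzyme of serine synthesis, followed an endometrial course of its own. Its libraries held 90.7, 273 and 684 CPM on day 3, 2688, 2834 and 3224 CPM on day 6 and 324, 418 and 447 CPM on day 12. The call of day 6 against day 3 was a log2 fold change of 3.24 ± 0.55 (adjusted p = 0.00229). In the oviduct, day 12 held 17.6 to 46.0 CPM and day 18 30.4 to 73.0 CPM, which overlap. CWH43, which remodels the lipid anchor of membrane proteins, was higher in the endometrium on day 6 (3.83 ± 0.51, adjusted p = 0.000757) and on day 12 (3.17 ± 0.50, adjusted p = 0.00858).

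**Figure D4:**
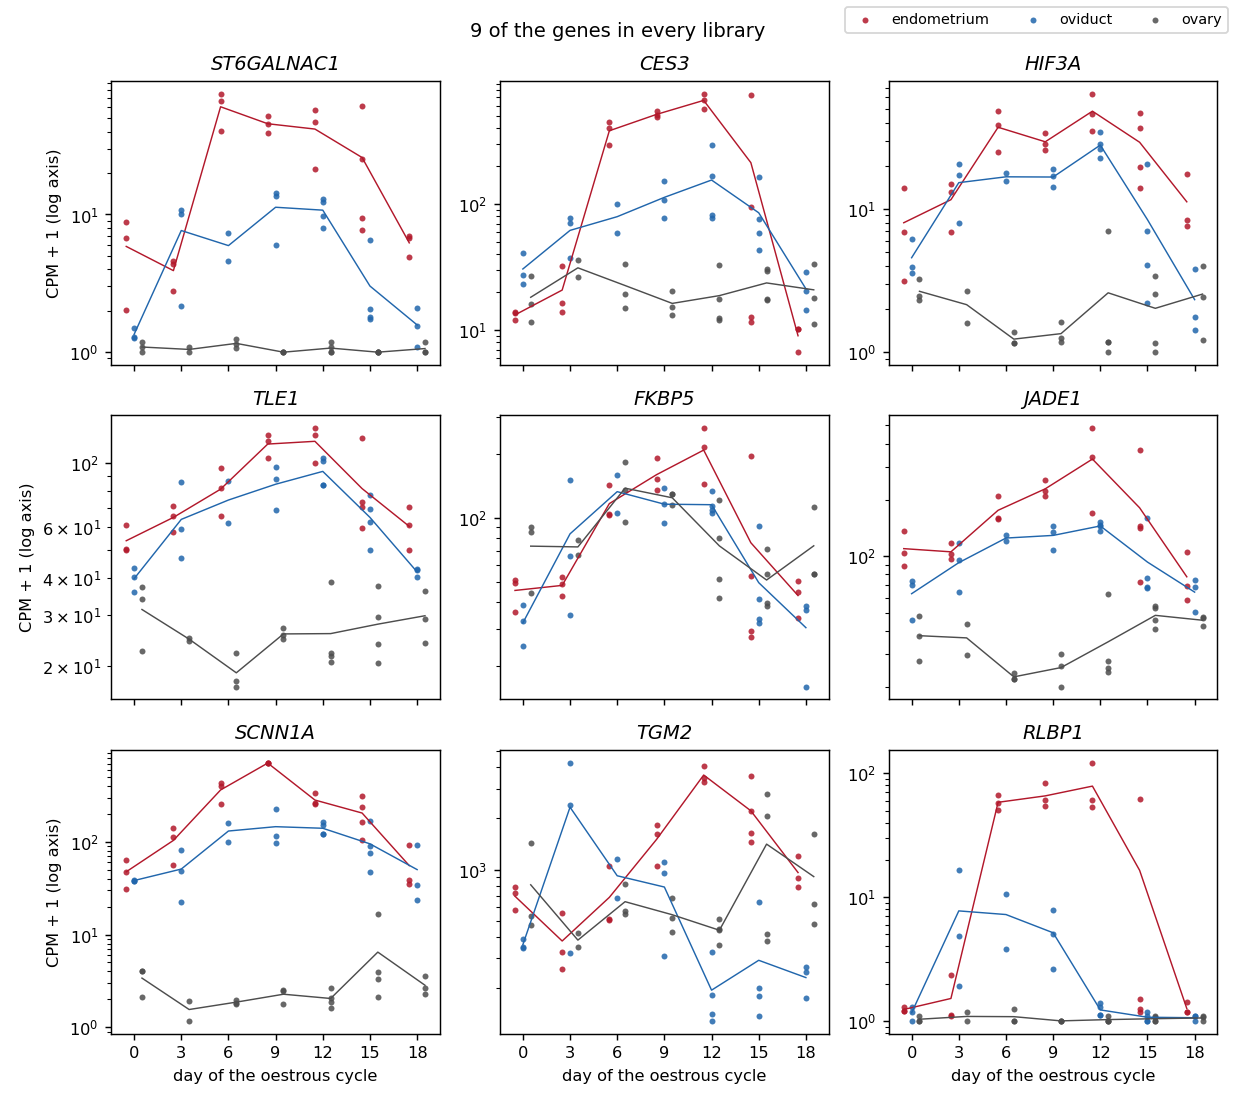
CPM + 1 of 9 genes in every library (points) with the mean of each day (line) for the endometrium (red), oviduct (blue) and ovary (grey), on a log axis, with tissues set slightly apart on the day axis. FKBP5 was at 41.1 CPM or more in each ovarian library of days 12 and 18, whereas ST6GALNAC1 and RLBP1 were at or under the detectable level in the ovary, and RLBP1 also in the oviduct from day 15.

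Transporters and channels made up 11 of the genes, of which 4 were higher on day 12 in the endometrium and 2 in the oviduct. SCNN1A encodes the alpha subunit of the epithelial sodium channel, which draws sodium and water out of the lumen. Its endometrial libraries held 54.9, 112 and 141 CPM on day 3 and 254, 404 and 428 CPM on day 6. They held 253, 260 and 333 CPM on day 12 and 34.0, 38.2 and 91.2 CPM on day 18. Neither pair of days overlaps, and both steps were called (2.0 ± 0.48, adjusted p = 0.0134, and 2.40 ± 0.49, adjusted p = 0.0146, as log2 fold changes).

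In the oviduct SCNN1A held 121, 122, 149 and 164 CPM on day 12, above 22.4, 33.5 and 91.7 CPM on day 18, but did not pass the test (log2 fold change 1.33 ± 0.50, adjusted p = 0.0778). CATSPERB, a subunit of a calcium channel best known from sperm, was higher in the endometrium on day 6 than on day 3 (adjusted p = 0.00241), where day 3 held a mean of 0.272 CPM from 2 to 4 counts, too few for a fold. SLC30A2, a zinc exporter, was higher on day 6 as well (2.64 ± 0.46, adjusted p = 0.00266). SLC1A3 was called in the endometrium on day 12 (2.58 ± 0.70, adjusted p = 0.0309).

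ATP13A4, a P5-type ATPase, and ATP6V1B1 were each called on day 12 in the oviduct and not in the endometrium. ATP13A4 held 1.86, 3.57, 3.93 and 6.00 CPM in the oviduct on day 12 and 0.174, 0.281 and 0.721 CPM on day 18 (log2 fold change 3.06 ± 0.62, adjusted p = 0.0143). Of the day 18 values, 0.174 and 0.281 CPM were at or under the detectable level, so the size of this fold is uncertain. In the endometrium it held 14.7, 15.4 and 31.9 CPM on day 12 and 25.7, 34.6 and 43.2 CPM on day 18, which overlap (-0.67 ± 0.63, adjusted p = 0.487). ATP6V1B1 was higher in the oviduct on day 12, with 434, 608, 618 and 652 CPM against 128, 152 and 377 CPM (1.22 ± 0.34, adjusted p = 0.0321). Its endometrial libraries held 57.7, 113 and 146 CPM on day 3 and 17.9, 34.1 and 36.3 CPM on day 6, the fall given above.

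Genes of junctions, adhesion and matrix numbered 11, of which 5 were higher on day 12 in the endometrium, 1 in the oviduct and 7 on day 6 against day 3 in the endometrium. CLDN8, a tight junction claudin, held 58.0, 68.7 and 74.9 CPM in the endometrium on day 3 and 190, 277 and 284 CPM on day 6 (2.09 ± 0.46, adjusted p = 0.00855). It held 299.8, 346 and 551 CPM on day 12 and 85.3, 94.8 and 171 CPM on day 18 (1.78 ± 0.45, adjusted p = 0.0261). MYZAP, a junction protein, was the gene of this group called in the oviduct (0.89 ± 0.28, adjusted p = 0.0472).

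TGM2, transglutaminase 2, which cross-links proteins of the matrix, followed a different course in each tissue. The endometrium held 256, 327 and 550 CPM on day 3 but 3298, 3447 and 4081 CPM on day 12, and 784, 886 and 1206 CPM on day 18. Day 12 against day 18 was called there (1.96 ± 0.40, adjusted p = 0.0146). The oviduct held 320, 2403 and 4270 CPM on day 3 and 127, 140, 180 and 326 CPM on day 12. On day 18 the oviduct held 174, 248 and 266 CPM, which overlaps day 12 (-0.50 ± 0.65, adjusted p = 0.61).

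Secreted signals, receptors and defence genes numbered 10, of which 4 were higher on day 12 in the endometrium and 1 in the oviduct. DEFB1, an antimicrobial beta-defensin, held 164, 253 and 309 CPM in the endometrium on day 12 and 6.67, 7.57 and 7.92 CPM on day 18 (5.07 ± 1.53, adjusted p = 0.043). NDP, the Frizzled ligand norrin, held 35.0, 36.9 and 66.8 CPM and 2.02, 2.99 and 3.48 CPM (4.06 ± 1.01, adjusted p = 0.0237). Both were called in the endometrium and not in the oviduct. WIF1, an inhibitor of secreted WNT proteins, held 13.8, 22.6 and 154 CPM against 4.09, 4.80 and 6.49 CPM (3.68 ± 0.76, adjusted p = 0.0154), so that 1 library held most of the day 12 signal.

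MAP4K2, a kinase of the stress-activated pathway, was called in both tissues. Its endometrial libraries held 58.5, 67.2 and 85.3 CPM on day 12 and 18.4, 21.1 and 26.6 CPM on day 18 (1.72 ± 0.41, adjusted p = 0.0209). Its oviductal libraries held 58.1, 79.4, 87.5 and 89.2 CPM and 20.0, 28.6 and 37.1 CPM (1.25 ± 0.28, adjusted p = 0.0166). GPR183, a receptor for oxysterols on immune cells, was called on day 6 in the endometrium, with 94.0, 168 and 171 CPM on day 6 against 3.01, 5.99 and 12.6 CPM on day 3 (4.53 ± 0.47, adjusted p = 0.0002). By day 12 its 3 endometrial libraries held 1.17, 1.30 and 1.54 CPM. MAST2, a microtubule-associated kinase, held 62.1, 87.3 and 115 CPM on day 3 and 573, 629 and 770 CPM on day 6 (3.08 ± 0.38, adjusted p = 0.000537), and was back at 68.9, 69.9 and 123 CPM by day 12.

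Of the 11 remaining genes with a symbol, 4 were higher on day 12 in the endometrium and 3 in the oviduct. CLIP4, a microtubule-binding protein, was called in both tissues on day 12 (2.10 ± 0.48, adjusted p = 0.0193, in the endometrium and 1.73 ± 0.42, adjusted p = 0.021, in the oviduct). RLBP1, a retinaldehyde-binding protein, held 52.3, 60.2 and 121 CPM in the endometrium on day 12 and 0.174 to 0.427 CPM on day 18, where its counts were 2 to 4. It was called there (adjusted p = 0.0226), and no fold is given because day 18 rested on so few counts. In the oviduct RLBP1 held 0.902, 3.87 and 15.4 CPM on day 3 but no more than 0.393 CPM on day 12. DOCK9, an activator of the small GTPase CDC42, held 1006, 2993 and 3099 CPM in the endometrium on day 6 against 286, 341 and 449 CPM on day 3 (2.91 ± 0.39, adjusted p = 0.000752). In the oviduct DOCK9 was called on day 12 instead (1.15 ± 0.24, adjusted p = 0.0161).

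Of the 31 identifiers without a symbol, 14 were higher on day 12 in the endometrium, 6 in the oviduct and 3 in both. ENSSSCG00000002520 held 245, 247 and 320 CPM in the endometrium on day 12 against 114, 146 and 199 CPM on day 18 (0.85 ± 0.24, adjusted p = 0.0357). In the oviduct it held 554, 554, 596 and 821 CPM against 112, 152 and 372 CPM (1.38 ± 0.41, adjusted p = 0.037). ENSSSCG00000000015 peaked in the endometrium on day 6, with 320, 554 and 733 CPM against 26.5, 134 and 261 CPM on day 3 (2.10 ± 0.62, adjusted p = 0.035). ENSSSCG00000002749, which had the largest oviductal ratio, was higher on day 6 in the endometrium (2.52 ± 0.80, adjusted p = 0.0491) and missed the threshold for day 12 there (adjusted p = 0.0573) and in the oviduct (adjusted p = 0.193). ENSSSCG00000017448 was called on day 12 in the endometrium (1.75 ± 0.46, adjusted p = 0.0281), while its oviductal libraries of 676 to 1101 CPM on day 12 and 393 to 1692 CPM on day 18 overlapped.

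The day 15 endometrium held the largest disagreement between libraries. Against day 12, edgeR called 0 of the 90 genes and 0% of all genes, while 2 were higher and 22 lower at an unadjusted p under 0.05, beside 3597 of all genes, and DESeq2 called 1 higher and 7 lower. The library numbered 2 lay within or above the range of the 3 day 12 libraries for 74 of the 91 genes. For 43 genes all 3 other day 15 libraries lay under that range. No share over all genes is given beside these counts, and this library also moved the calls over all genes, as given below. RLBP1 held 60.9 CPM in library 2 and 0.183, 0.254 and 0.492 CPM in the others. CES3 held 730 CPM there and 10.5, 11.8 and 93.6 CPM in the others, and DEFB1 366 CPM there and 6.69, 7.57 and 9.75 CPM in the others.

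Without that library, 35 of these genes were lower and 1 higher on day 15 than on day 12, among 1615 genes higher and 1944 lower overall. In the oviduct, day 15 against day 12 gave 0 calls (0% of all genes), with 2 higher and 17 lower at an unadjusted p under 0.05, beside 1760 of all genes, and 1 lower by DESeq2. Without the oviductal day 15 library numbered 2, 10 of these genes were called lower, among 180 genes higher and 85 lower overall. In the ovary the same comparison gave 0 calls (0% of all genes), with 7 higher and 5 lower at an unadjusted p under 0.05, beside 2830 of all genes, and 2 higher by DESeq2. Without the ovarian day 12 library 1, 4 were called higher and 2 lower, among 722 higher and 1114 lower overall.

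**Figure D5:**
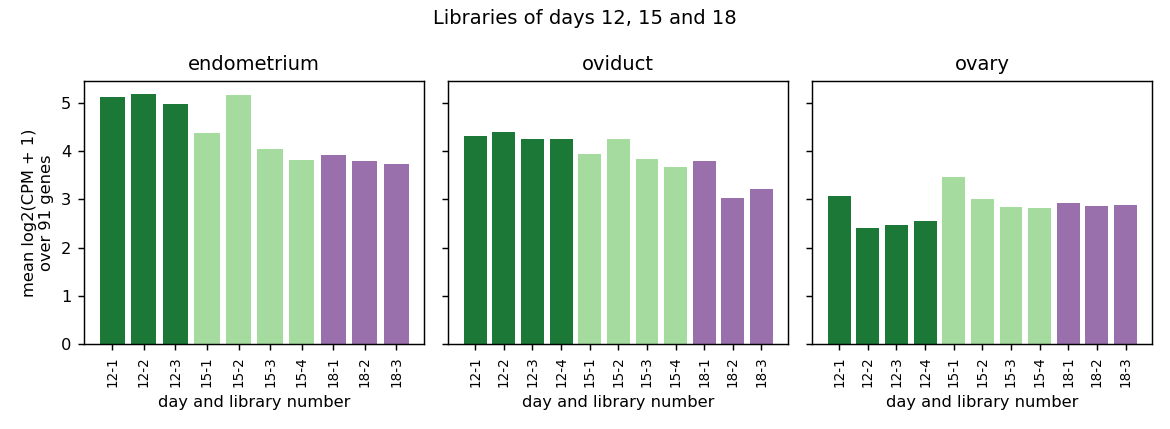
Mean log2(CPM + 1) over the 91 genes in each library of days 12, 15 and 18, labelled by day and library number, with bars starting at 0. Endometrial library 15-2 stood at 5.16, beside 4.99 to 5.20 on day 12 and 3.81 to 4.37 in the other day 15 libraries, and ovarian library 12-1 at 3.07, beside 2.41 to 2.56 in the others of its day.

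The fall after day 12 was compared between tissues in 1 fit of all 3. By the study's methods the tissues of a day came from the same gilts, which this fit treats as independent. The change from day 18 to day 12 was larger in the endometrium than in the ovary for 15 of the 91 genes and smaller for 0, where 4.41% of the 16803 genes tested were larger and 3.50% smaller. At an unadjusted p under 0.05, 38 were larger and 2 smaller, and DESeq2 called 28 larger and 0 smaller. It was larger in the oviduct than in the ovary for 12 and smaller for 0, where 7.17% of all genes were larger and 9.03% smaller. At an unadjusted p under 0.05, 28 were larger and 1 smaller, and DESeq2 called 19 larger and 0 smaller. With libraries of the same day and number taken as 1 gilt in a block, the counts were 15 and 17. The 91 genes include the 17 too low in the ovary to be tested there, whose ovarian change could not be measured. Among the 74 others, 14 were larger in the endometrium and 12 in the oviduct, and the 1 call among the 17 was GRIA1. For most of the 91 genes, the tests did not separate the ovary from the other tissues.

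Among the 14 genes with a larger endometrial change that could be tested in the ovary alone were CES3, JADE1, TLE1, SCNN1A, TGM2, DEFB1, NDP, SPON1, GDPD3, N4BP3, PRRG1, ENSSSCG00000015506 and ENSSSCG00000028484. The 12 with a larger oviductal change were HIF3A, TLE1, FCSK, GDPD3, MBOAT1, SLC19A3, NDRG4, WIPF3, PRRG1, ENSSSCG00000007903, ENSSSCG00000011115 and ENSSSCG00000027969. The 3 genes on both lists were TLE1, GDPD3 and PRRG1. Some listed genes were low in the ovary on day 12, where HIF3A held 0, 0.171, 0.172 and 6.04 CPM. ENSSSCG00000028484, SLC19A3 and NDRG4 had means under 1 CPM there. For these genes the ovarian change, and so the size of the difference from the ovary, is uncertain. CES3 differed from the ovary by 6.43 ± 1.17 on the log2 scale in the endometrium (adjusted p = 0.00184), and TLE1 by 1.08 ± 0.31 in the endometrium (0.0275) and 1.0 ± 0.30 in the oviduct (0.0188). Without the ovarian day 12 library 1, the counts rose to 28 for the endometrium and 23 for the oviduct. Without the ovarian day 12 library 2 they were 7 and 6, and without library 3 they were 9 and 7. The endometrial count was 7 without that tissue's day 18 library 3, 8 without day 18 library 2 and 9 without day 12 library 3. The oviductal count was 4 without that tissue's day 18 library 2, 20 without day 18 library 1 and 7 without the ovarian day 18 library 1.

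Between the endometrium and the oviduct, 6 of the 91 genes had a larger change in the endometrium and 1 in the oviduct, where 3.45% and 2.19% of all genes did. The 6 were CES3, PHGDH, DEFB1, NDP, ENSSSCG00000015506 and GRIA1, and the 1 was ATP13A4. In the oviduct GRIA1 held means of 0.049 CPM on day 12 and 0.116 CPM on day 18, under the detectable level, so no change could be measured there. PHGDH differed by 2.77 ± 0.79 on the log2 scale (adjusted p = 0.0312) and ATP13A4 by -3.75 ± 0.94 (adjusted p = 0.0158). The ATP13A4 value rests on oviductal day 18 libraries that reached down to the detectable level and below it. At an unadjusted p under 0.05, 19 had a larger change in the endometrium and 6 in the oviduct. Without the oviductal day 18 library numbered 2 the count of 7 fell to 0, and without the endometrial day 18 library numbered 2 or 3 it fell to 1 or 2.

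The mean level over days 3, 6, 12, 15 and 18 also differed between the tissues. The rule bears on this measure, since it needs a gain of more than 1 CPM in the endometrium and oviduct and lets in genes near 0 in the ovary, so the counts are a description. In the endometrium 66 of the 91 genes were higher than in the ovary and 10 lower, where 33.6% of all genes were higher and 32.4% lower. In the oviduct 58 were higher than in the ovary and 13 lower, where 34.6% of all genes were higher and 35.7% lower. Both tissues lay above the ovary for 53 genes and below it for 6, among them GPR183 and MYZAP. Against the oviduct the endometrium was higher for 43 and lower for 17, where 28.6% of all genes were higher and 27.9% lower.

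SCNN1A was higher than in the ovary by 6.62 ± 0.37 on the log2 scale in the endometrium and by 5.7 ± 0.36 in the oviduct. FKBP5 differed from the ovary by -0.20 ± 0.22 and -0.36 ± 0.23, without passing the test (adjusted p = 0.443 and 0.157). ATP6V1B1 and SLC1A3 were higher in the oviduct than in the endometrium, by a log2 difference of the endometrium against the oviduct of -2.03 and -1.94. On day 9 the highest of the 3 tissue means was endometrial for 75 genes, oviductal for 15 and ovarian for 1. Day 9 values chose the genes, so these counts are a description, and no share over all genes is given beside them.

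Placed beside the sets chosen by the same limits, the 91 genes had these shares of calls. In the endometrium, day 12 was called higher for 44.4% of those tested among the 91, 35.8% of the genes chosen in the endometrium alone and 5.73% of those chosen in the oviduct alone. In the oviduct the shares were 25.6%, 5.90% and 31.8%. Of the 28 genes chosen in all 3 tissues, 51.9% of those tested were called higher in the endometrium and 46.4% in the oviduct, above the shares of the 91 genes. The median log2 fold change of day 12 against day 18 in the ovary was -0.19 for the 91 genes and 2.34 for those 28 genes. No test was made between these sets.

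Across the 66 libraries, some of the 91 genes followed each other closely, as a description over libraries that share tissue and day. The closest pair was GRIA1, a glutamate receptor subunit, with ENSSSCG00000024560 (Pearson r of log2(CPM + 1) 0.990). WIF1 followed ENSSSCG00000000468 (0.983) and SCNN1A followed ENSSSCG00000015732 (0.978). SCNN1A also went with CLDN8 (0.945) and with DEGS2, a sphingolipid desaturase (0.945). Whether 2 such identifiers belong to a single gene was not tested. In the gene order of RefSeq's Sscrofa11.1 assembly, which could place 54 of the 91 genes, COL23A1 and N4BP3 had 4 genes between them on chromosome 2, and DOCK9 and GPR183 had 2 on chromosome 11.

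The wider list of steroid receptors and progesterone targets was chosen for its function and holds 1 of the 91 genes, FKBP5. Of its 9 genes tested in the endometrium, FKBP5, ZBTB16 and PGRMC1 were higher on day 12 and 0 lower. Of 9 tested in the oviduct, FKBP5, ZBTB16 and PTCH1 were higher and PGR, the progesterone receptor itself, was lower. Of 13 transport genes tested in each tissue, 3 were higher and 2 lower in the endometrium (among them SCNN1A and SLC5A1, against CFTR and ATP2B1). In the oviduct 1 was higher, CFTR, and 1 lower, AQP5. CFTR thus moved in opposite directions, by -1.65 ± 0.41 in the endometrium (adjusted p = 0.0244) and 1.16 ± 0.36 in the oviduct (adjusted p = 0.0458) on the log2 scale.

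Markers of cell types moved in the comparison of day 12 with day 18, and the same shares over all genes stand beside their counts (5.83% higher and 9.53% lower in the oviduct, 7.10% and 6.00% in the endometrium). The markers' levels are given here, and their part in the results was not tested. Of 6 fibroblast markers, 4 were lower on day 12 than on day 18 in the oviduct, where their summed level was 1174 to 2695 CPM on day 12 and 2661 to 6435 CPM on day 18. Of 6 smooth muscle markers there, 1 was lower, with a summed level of 2010 to 9976 CPM on day 12 and 9900 to 19372 CPM on day 18. All 7 proliferation genes were lower on day 12 in the oviduct, at a summed 20.4 to 31.3 CPM against 123 to 354 CPM. Ciliated cell markers were called for 0 of 7 in the oviduct, at a summed 1539 to 2584 CPM on day 12 and 1408 to 2158 CPM on day 18.

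In the endometrium, 1 of 7 ciliated cell markers was lower on day 12, at a summed 154 to 303 CPM against 378 to 467 CPM. Of 6 epithelial markers there, KRT8 and KRT18 were higher and EPCAM was lower, and in the oviduct KRT18 was lower. Of 6 fibroblast markers, VIM was lower, while the summed level of the 6 was 15436 to 18093 CPM on day 12 and 10390 to 17393 CPM on day 18. Of the 6 epithelial markers, KRT8, KRT18, EPCAM, CDH1 and CLDN4 had higher medians in the endometrium and oviduct than in the ovary, with KRT8 at 1325, 1093 and 11.6 CPM in that order. OVGP1, the oviductal glycoprotein, had a median of 2.62 CPM in the endometrium, 14219 CPM in the oviduct and 57.8 CPM in the ovary. The ovary was marked by CYP11A1, the enzyme that starts steroid synthesis, at a median of 3274 CPM against 4.08 CPM in the endometrium and 41.1 CPM in the oviduct. Of the other lists, 0 of 3 endothelial markers were called in either tissue, and 1 of 8 leukocyte markers was higher in the endometrium and 0 in the oviduct. Of 5 steroidogenic markers in the oviduct, CYP11A1 itself was higher on day 12 (log2 fold change 2.30 ± 0.74, adjusted p = 0.0485) and SCARB1 was lower. Of 6 genes of uterine and oviductal secretions, 2 were lower in the endometrium and 0 were called in the oviduct. Of 10 prostaglandin genes, 1 was higher and 1 lower in the endometrium and 2 were higher and 2 lower in the oviduct. In the ovary 0 genes of any list were called by edgeR, as over all genes.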

How the data were processed

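RNA sequencing of endometrium, oviduct and ovary over the cycle had been summarised by the authors as raw read counts per Ensembl gene, deposited as 1 table. The submitters' notes name featureCounts, edgeR, Cufflinks, Cuffdiff and FastQC without versions, and the study's methods name tophat2 and Sus scrofa 10.2. The strand setting of the counting is not given in the sources used here, so overlapping and antisense genes may share reads.

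CPM was computed on the column totals. Tests used edgeR 4.0.16 (filterByExpr, TMM, robust quasi-likelihood fits, Benjamini-Hochberg over all genes, threshold 0.05) in R 4.3.3, per tissue without days 0 and 9, and across 48 libraries for tissue differences. DESeq2 1.42.0 was an alternative. The scripts were tested on simulated data. The genes and lists were chosen with earlier results of these data known, so no test over the list is given. Genes were named by the size of their ratio, read share, calls in both tissues and place at a limit. Other named genes were chosen after their values were seen. Symbols were paired with 11804 of 25322 identifiers. Replicate counts were compared in 74 pairs, of which 0 were identical. Libraries of a day sharing a number across tissues had a median correlation of deviations of 0.129 over 63 pairs, 43 of them over 0.1. Libraries of a day with different numbers across tissues had a median of -0.052 over 148 pairs, 10 of them over 0.1. The main fits did not take numbers as pairs, since no source ties a number to a gilt. Some genes are not reported here.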

Additional observations from a re-analysis of the deposited data

Results flagged for a closer look

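In 8 of 72 groups of 4 libraries examined for the named genes, 1 library stood apart by Dixon's test on log2(CPM + 1). Chance gives about 1 in 20 groups when they are independent. These groups are genes measured in the same few libraries, so they are not independent and the count cannot be set against that rate. The gap to the nearest library, as a share of the group's range, was 0.941 for RLBP1 and 0.838 for MAP4K2 in the endometrium of day 15. It was 0.919 for HIF3A, 0.968 for CLIP4 and 0.884 for TLE1 in the ovary of day 12. In the oviduct it was 0.933 for ENSSSCG00000017448 on day 12, and 0.867 for ST6GALNAC1 and 0.831 for ENSSSCG00000002749 on day 15.

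The change from day 18 to day 12 differed between tissues by an interaction term in edgeR. This was so for 15 of the 91 genes between endometrium and ovary, 1 of them too low in the ovary to be tested there, for 12 between oviduct and ovary and for 7 between endometrium and oviduct. Of the named genes, the log2 difference of the endometrium minus the ovary was 2.9 for TGM2, 6.43 for CES3 and 1.08 for TLE1. That of the oviduct minus the ovary was 4.14 for HIF3A and 1.0 for TLE1, and that of the endometrium minus the oviduct was -3.75 for ATP13A4 and 3.69 for CES3. HIF3A was mostly under the detectable level in the ovary on day 12. Its ovarian change alone was 0.035 ± 1.35 (SE) on the log2 scale, so the size of the difference of 4.14 ± 1.33 is uncertain. ATP13A4 reached down to that level and below it in the oviduct on day 18.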

How the results depend on the processing

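Of 101 counts of the genes called under alternatives other than a left-out library, 84 were within 1.5 times the reported count. With CPM on TMM library sizes, 59 genes met the rule in place of 91, an alternative chosen after seeing the data for the comparisons. Among those 59, the count for day 12 against day 18 in the endometrium was 25, and the counts for levels were 50 for endometrium against ovary, 47 for oviduct against ovary and 39 for endometrium against oviduct. DESeq2 called 8 genes for day 15 against day 12 in the endometrium (7 in edgeR with all 7 days fitted), 1 in the oviduct and 2 in the ovary, 1 for day 6 against day 3 in the oviduct and 1 for day 12 against day 18 in the ovary. With only the 2 days compared, 2 were called for day 6 against day 3 in the ovary. The difference of endometrium minus ovary gave 28 with DESeq2 and 26 with all 7 days, that of oviduct minus ovary 19 and 21, and that of endometrium minus oviduct 4 without the low-count filter. The cause was not tested.

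With 1 library left out, the counts ran from 21 to 53 for day 6 against day 3 in the endometrium and from 0 to 0 in the oviduct and ovary. For day 12 against day 18 they ran from 1 to 49 in the endometrium, 0 to 32 in the oviduct and 0 to 8 in the ovary, and for day 15 against day 12 from 0 to 36, 0 to 10 and 0 to 6. For the differences they ran from 7 to 28 (endometrium minus ovary), 4 to 23 (oviduct minus ovary) and 0 to 7 (endometrium minus oviduct). Joint fits without a library of day 3, 6 or 15 were not run. The rule gave 86 to 114 genes.

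With the replicate block, 35 genes were called for day 6 against day 3 and 39 for day 12 against day 18 in the endometrium and 24 for day 12 against day 18 in the oviduct. With libraries of the same day and number as 1 gilt in the block, the differences gave 15 (endometrium minus ovary), 17 (oviduct minus ovary) and 8 (endometrium minus oviduct). Under the block the log2 fold change of ENSSSCG00000017448 for day 12 against day 18 in the oviduct turned to 0.0073.

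Of 2112 values of named genes, 11 changed sign, none of them called. Without 1 library, the ranges that held such a turn were these. ENSSSCG00000000015 ran from -0.69 to 0.13 for endometrium minus ovary and from -1.46 to 0.030 for oviduct minus ovary. For day 6 against day 3 in the endometrium, ATP13A4 ran from -0.015 to 1.22 and HSPA1L from -0.035 to 0.74. For oviduct minus ovary, HSPA1L ran from -0.64 to 0.016 and TGM2 from -0.43 to 0.81. ENSSSCG00000017448 ran from -0.46 to 0.56 for day 12 against day 18 in the oviduct. DOCK9 ran from -0.10 to 0.48 for endometrium minus ovary and from -0.15 to 0.0011 for its level in the endometrium against the oviduct.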
